A study of Homo sapiens with 9 samples.

Results

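The nuclear-encoded subunits of the respiratory chain and of ATP synthase were taken as all genes whose symbols name them: NDUFA, NDUFB, NDUFC, NDUFS or NDUFV with a digit for complex I, SDHA to SDHD for complex II, symbols starting with UQCR for complex III, COX4 to COX8 with a letter for complex IV, and symbols starting with ATP5 for complex V, the ATP synthase. Assembly factors, antisense genes and pseudogenes were left out. The rule found 88 of the 26830 genes: 39 of complex I, 4 of complex II, 9 of complex III, 17 of complex IV and 19 of complex V. Polyadenylated RNA came from human cells labelled NB4, an acute promyelocytic leukaemia line, although their cell type field reads acute monocytic leukemia, that had been kept for 48 h in the presence of FB23, FB23-2 or DMSO as the vehicle. Each group had 3 libraries, and the title of the series gives inhibition of FTO, an RNA demethylase, as the purpose of both compounds. The labels give no doses, so the compounds are set side by side at 1 time only. They also do not say whether replicates were separate cultures, so p-values may measure technical spread alone. In bulk RNA, fewer cells of a type and less RNA per cell cannot be told apart.

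The respiratory chain passes electrons from NADH (at complex I) and from succinate (at complex II) through coenzyme Q to complex III, then through cytochrome c to complex IV, where oxygen is reduced. Complexes I, III and IV pump protons across the inner mitochondrial membrane, and complex V lets them return through a turning ring of c subunits to make ATP. Except for complex II, each complex combines subunits encoded in the nucleus with a few encoded in mitochondrial DNA. The mitochondrially encoded subunits were not analysed here.

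With FB23-2 most of these genes fell, and with FB23 most did not change detectably. The 88 genes took 1.11% ± 0.006 of all expected counts with DMSO, 1.09% ± 0.0674 with FB23 and 0.585% ± 0.00802 with FB23-2 (SD, n = 3). Library totals ran from 12360291 to 38410750 expected counts. Of the 88 genes, 82 had enough counts to be tested. Neither cell type in the labels was matched by its markers. MPO and CTSG, granule enzymes of promyelocytes, had 0 counts in all 9 libraries, and the 5 granule genes summed to between 0.23 and 1.77 TPM, RSEM's abundance per length. The 6 red cell precursor genes, with the globins HBG2, HBZ and HBA1, were all detected. Their sum ranged over 19940 to 21110 TPM in DMSO libraries, 22920 to 24670 in FB23 libraries and 2306 to 2642 in FB23-2 libraries. The 3 epithelial genes EPCAM, KRT8 and KRT19 summed to 388.9 to 391.9, 410.1 to 430.6 and 1949 to 2083 TPM in the same order. Within that list KRT8 (mean 227 to 1373 TPM from DMSO to FB23-2) and KRT19 (89.4 to 621) were higher with FB23-2 and EPCAM (73.5 to 25.5) was lower. The 3 monocyte genes summed to 4.14 to 5.29, 2.86 to 3.54 and 11.5 to 12.3 TPM, most of it LYZ (mean 4.35 with DMSO and 11.4 with FB23-2), while CD14 stayed at or under 0.84 and CSF1R at or under 0.33. The 3 lymphocyte genes stayed at or under 0.92 in sum. These marker sums moved with the fall of the subunits under FB23-2, and their part in it was not tested.

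Promoter sequence is shown for members at both ends of the response and for others that hold motifs of factors known to control this gene class. RefSeq (GRCh38.p14) gave a promoter for 70 of the 88 members, 250 bases before to 50 after the start. The 130 bases just before the start are printed 5′ to 3′ on the gene's strand. SDHA and SDHB encode neighbouring subunits of complex II and ended at opposite ends of that complex's range, and ATP5G1 had the largest fall of all members. Capitals mark matches to CCGGAAG, the core bound by ETS factors such as GABP, or to the 10-letter palindromic site of the factor NRF1 (spelled by the capitals in SDHD that follow tgtgttt), on either strand.
SDHA (chr5:218190-218319, plus strand): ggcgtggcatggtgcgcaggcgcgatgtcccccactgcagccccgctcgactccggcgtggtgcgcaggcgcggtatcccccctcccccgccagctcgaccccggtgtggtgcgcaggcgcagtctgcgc
SDHB (chr1:17054033-17054162, minus strand): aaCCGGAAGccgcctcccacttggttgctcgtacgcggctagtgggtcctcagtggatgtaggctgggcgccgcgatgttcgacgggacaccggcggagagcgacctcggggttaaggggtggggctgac
SDHD (chr11:112086743-112086872, plus strand): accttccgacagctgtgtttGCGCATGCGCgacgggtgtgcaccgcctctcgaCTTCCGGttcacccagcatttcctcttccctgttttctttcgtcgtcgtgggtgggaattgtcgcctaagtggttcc
UQCR11 (chr19:1605463-1605592, minus strand): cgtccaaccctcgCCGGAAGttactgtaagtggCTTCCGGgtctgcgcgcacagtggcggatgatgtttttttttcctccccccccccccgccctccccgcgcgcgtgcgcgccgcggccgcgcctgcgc
ATP5C1 (chr10:7788047-7788176, plus strand): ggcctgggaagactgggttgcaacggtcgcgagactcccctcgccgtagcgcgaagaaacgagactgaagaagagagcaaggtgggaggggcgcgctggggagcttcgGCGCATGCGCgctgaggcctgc
ATP5G1 (chr17:48892657-48892786, plus strand): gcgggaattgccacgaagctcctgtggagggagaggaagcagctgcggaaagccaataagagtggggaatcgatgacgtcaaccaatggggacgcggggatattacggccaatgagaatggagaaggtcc

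SDHB, UQCR11 and SDHD hold ETS matches in the printed bases, with 2 in UQCR11. SDHD and ATP5C1 hold the NRF1 site, whose first base lies 110 and 22 bases before the start. SDHA has no exact match to any motif searched in its whole 300-base window. Only exact letters were searched, so sites with another spelling were not counted. The printed bases of SDHA hold gcgcaggcgc, and those of UQCR11 its reverse complement, which differ from the NRF1 site by a single letter. No match lies in the printed bases of ATP5G1, but the rest of its window holds CACGTG, and with it ACGTG. Outside the printed bases, the window of UQCR11 also holds CACGTG and ACGTG, and that of SDHB holds AAGATGGCG. Over whole windows, CCGGAAG was found in 20 of 70 members (28.6%) and in 12.2% of 27305 genes with a promoter. The NRF1 site was found in 4 members (5.71%) against 1.52% of all, and AAGATGGCG, a site of the factor YY1, in 9 (12.9%) against 2.14%. CACGTG, the E-box, was in 7 members against 8.78% of all genes, and ACGTG, which every CACGTG contains, in 18 (25.7%) against 24.9%. TCAAGGTCA, a site of oestrogen-related receptors, was in SDHD alone among the members. The median log2 fold change with FB23-2 was -1.05 in the 20 tested members with CCGGAAG and -0.87 in the 47 without. It was -1.29 in the 9 with AAGATGGCG and -0.89 in the 58 without, and -1.315 in the 7 with CACGTG and -0.89 in the 60 without. For ACGTG it was -1.14 in 18 and -0.86 in 49, and for the NRF1 site -0.93 in 4 and -0.93 in 63. These shares and medians describe letters in a window and say nothing of which factor was bound.

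In DMSO the subunits differed widely in level. On the TPM scale, which is per length, COX8A was the highest member at 2793 and ATP5B, the catalytic beta subunit of ATP synthase, the highest of complex V at 1769. COX6A1 stood at 1898 and COX7B at 1815. The highest of complex I were NDUFA13 (969.8), NDUFS7 (714.0) and NDUFS6 (669.7), and the lowest detected NDUFA4L2 (0.58), NDUFC2 (3.41) and NDUFA5 (18.1). In complex II, SDHB (270.0) was above SDHD (138.3), SDHA (109.6) and SDHC (31.6). The 9 members of complex III ran from 1230 for UQCRHL to 33.4 for UQCRB. Each gene was counted on a single transcript model, so a long model lowers TPM: the model of NDUFA5 has 5775 bases and that of UQCRB 4933, against 697 for NDUFB10. The isoform genes COX4I2, COX6A2, COX7B2 and COX8C had 0 counts in all 9 libraries, an upper limit of 0.0156 CPM (3 counts over the 9 libraries). COX7A1, the muscle form of subunit 7A, had 8 counts in all and ATP5L2 had 5.

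Summed by complex, the level of the subunits was nearly the same with DMSO and FB23 and lower with FB23-2. Complex I summed to 8678 ± 220 TPM with DMSO, 8729 ± 374 with FB23 and 4575 ± 87.6 with FB23-2. Complex V summed to 10813 ± 78.9, 10417 ± 226 and 5609 ± 24.8. The ratio of FB23-2 to DMSO was 0.519 for complex V and 0.527 for complex I, and 0.587, 0.617 and 0.652 for complexes II, III and IV. In each complex the 3 FB23-2 libraries lay below all 6 others.

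**Figure D1:**
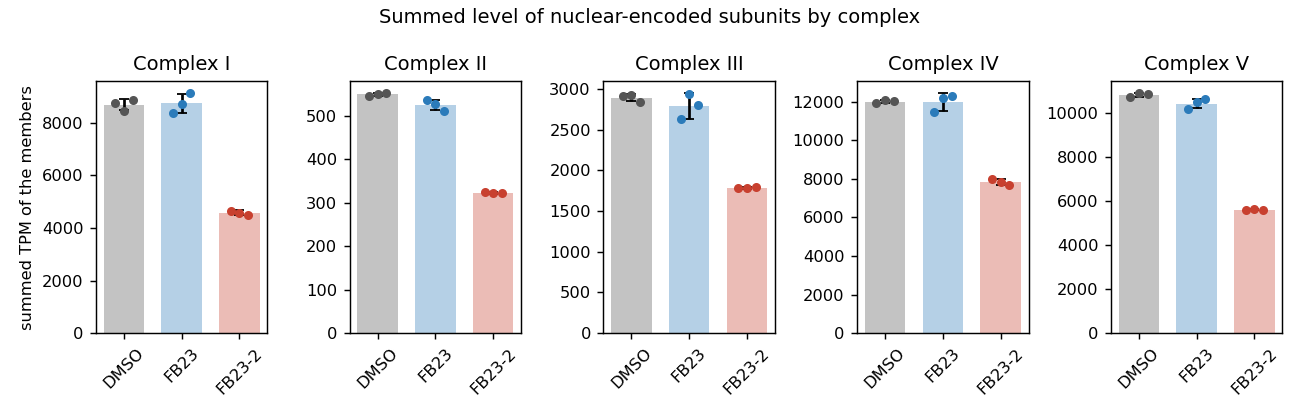
Summed TPM of the members of each complex (vertical axis) with DMSO, FB23 and FB23-2. Bars are means, error bars SD and points the 3 libraries of each group; the FB23-2 bars stand at 0.519 to 0.652 of the DMSO bars.

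FB23-2 against DMSO asks how the subunit transcripts stood after 48 h with the second compound. Of the 82 tested members 74 were called lower, 4 higher and 4 not at all, by edgeR's quasi-likelihood test at an adjusted p under 0.05 over 13365 genes. Of the 4 called higher, NDUFA4L2 and COX6B2 passed the count filter only through the FB23-2 libraries, where they were high, so their direction supports nothing. ATP5J2-PTCD1 reached the filter's count in 1 DMSO, 1 FB23 and 2 FB23-2 libraries, so it passed only with FB23-2. Its direction supports nothing either. Across all tested genes 82.6% were called, 41.3% lower and 41.3% higher, so a call alone says little and the balance and size say more. Among the members 90.2% were called lower. The median log2 fold change of the members was -0.92, with quartiles of -1.31 and -0.58, and the median of all genes was 0.01. A called fall of at least 1 on the log2 scale was found in 38 members (46.3%) and in 16.1% of all genes. In 77 members all FB23-2 libraries lay below all DMSO libraries in CPM, which held for 42.1% of all genes. CPM here are counts scaled to the library total times its TMM factor, edgeR's scaling between libraries.

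**Figure D2:**
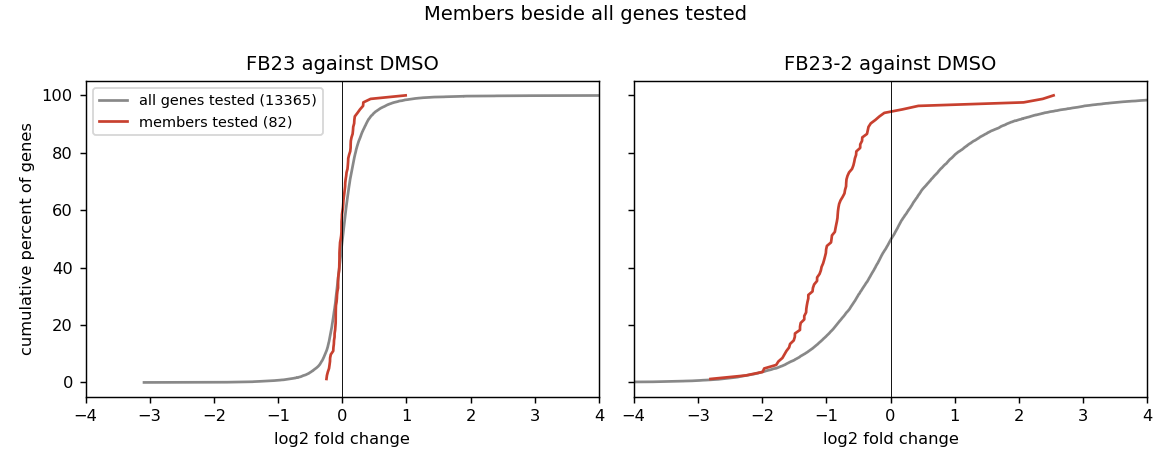
Cumulative percent of genes (vertical axis) by log2 fold change (horizontal axis) for the 82 tested members and all 13365 tested genes, with 1 panel for each compound against DMSO. The members' curve lies left of that of all genes with FB23-2, with a median of -0.92 against 0.01, and rises steeply around 0 with FB23 against DMSO, where the members' median is -0.02.

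In complex I, 36 of 39 members fell, NDUFA4L2 was called higher, and NDUFS4 and NDUFC2 were not called (median -0.92). The nuclear-encoded core subunits carry the flavin, the iron-sulfur clusters and the route of electrons to coenzyme Q, and those described here fell by 0.85 to 1.34 on the log2 scale. NDUFV1, the NADH-binding subunit, stood at 312, 329 and 337 TPM with DMSO, 317, 319 and 322.5 with FB23, and 151.5, 151 and 153 with FB23-2. The FB23-2 libraries were far below the DMSO range, and on the TPM scale the FB23 libraries lay within it. Its change with FB23-2 was -1.34 (SE 0.046, adjusted p = 1.72e-14). NDUFS8, a subunit with iron-sulfur clusters, and NDUFS7, which holds the last cluster before coenzyme Q, changed by -1.34 (SE 0.075) and -1.29 (SE 0.084). NDUFS3 changed by -1.21 (SE 0.075), NDUFV2 by -0.92 (SE 0.048) and NDUFS1 by -0.85 (SE 0.046).

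The 29 accessory subunits of complex I, which surround the core and are needed to assemble or hold it, were more spread: 27 fell, with a median of -0.835. NDUFB10 (chr16:1959538-1961975, GRCh38.p14), a membrane arm subunit, stood at 441, 429 and 461.5 TPM with DMSO, 417, 459 and 480 with FB23, and 112, 113 and 98.6 with FB23-2. The FB23-2 libraries were apart from the other 6, which overlapped. It fell 4.77-fold (log2 -2.25, SE 0.09, adjusted p = 1.46e-13), the largest fall in complex I. NDUFS6 (chr5:1801407-1816048), which binds zinc at the matrix arm, read 692, 698 and 619 TPM with DMSO, 611, 558.5 and 612 with FB23, and 209, 193 and 174 with FB23-2. With FB23-2 NDUFS6 changed by -1.99 (SE 0.091). NDUFA5 (chr7:123536997-123601651), another matrix arm subunit, read 18.2, 18.3 and 17.8 TPM with DMSO, 16.2, 16.2 and 14.1 with FB23, and 5.49, 5.39 and 5.64 with FB23-2. All 3 FB23 libraries of NDUFA5 lay below DMSO and above FB23-2. NDUFB7 (-1.78), NDUFS5 (-1.58), NDUFB8 (-1.57) and NDUFB9 (-1.49) followed.

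At the other end of complex I, NDUFB11 changed by -0.17 (SE 0.062, adjusted p = 0.0172), but its sign depended on the scaling: on the TPM scale the change was 0.07 (adjusted p = 0.193, limma). NDUFB5 changed by -0.355 (SE 0.075), against 0.14 after removal of GC and length trends. NDUFS4 was not called at -0.235 (SE 0.109, 95% interval -0.466 to -0.004, adjusted p = 0.0562). NDUFA4, which the symbol rule puts in complex I although the protein is now counted with complex IV, fell by 1.09 on the log2 scale. Its paralog NDUFA4L2, a gene known to be induced by low oxygen, was barely detected: 0.78, 0.55 and 0.41 TPM with DMSO, 0.84, 0.70 and 0.86 with FB23, and 3.48, 2.37 and 2.80 with FB23-2. The FB23-2 libraries lay above the others, with 18 counts over the DMSO group, 39 over the FB23 group and 95 over the FB23-2 group. It passed the count filter only through the 3 FB23-2 libraries, where it is high, so its call (log2 2.07, SE 0.343) is given as a description. NDUFC2 (0.19, adjusted p = 0.296) overlaps the readthrough symbol NDUFC2-KCTD14 (-0.91, SE 0.095), which took most of the reads, so the value of neither is certain.

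**Figure D3:**
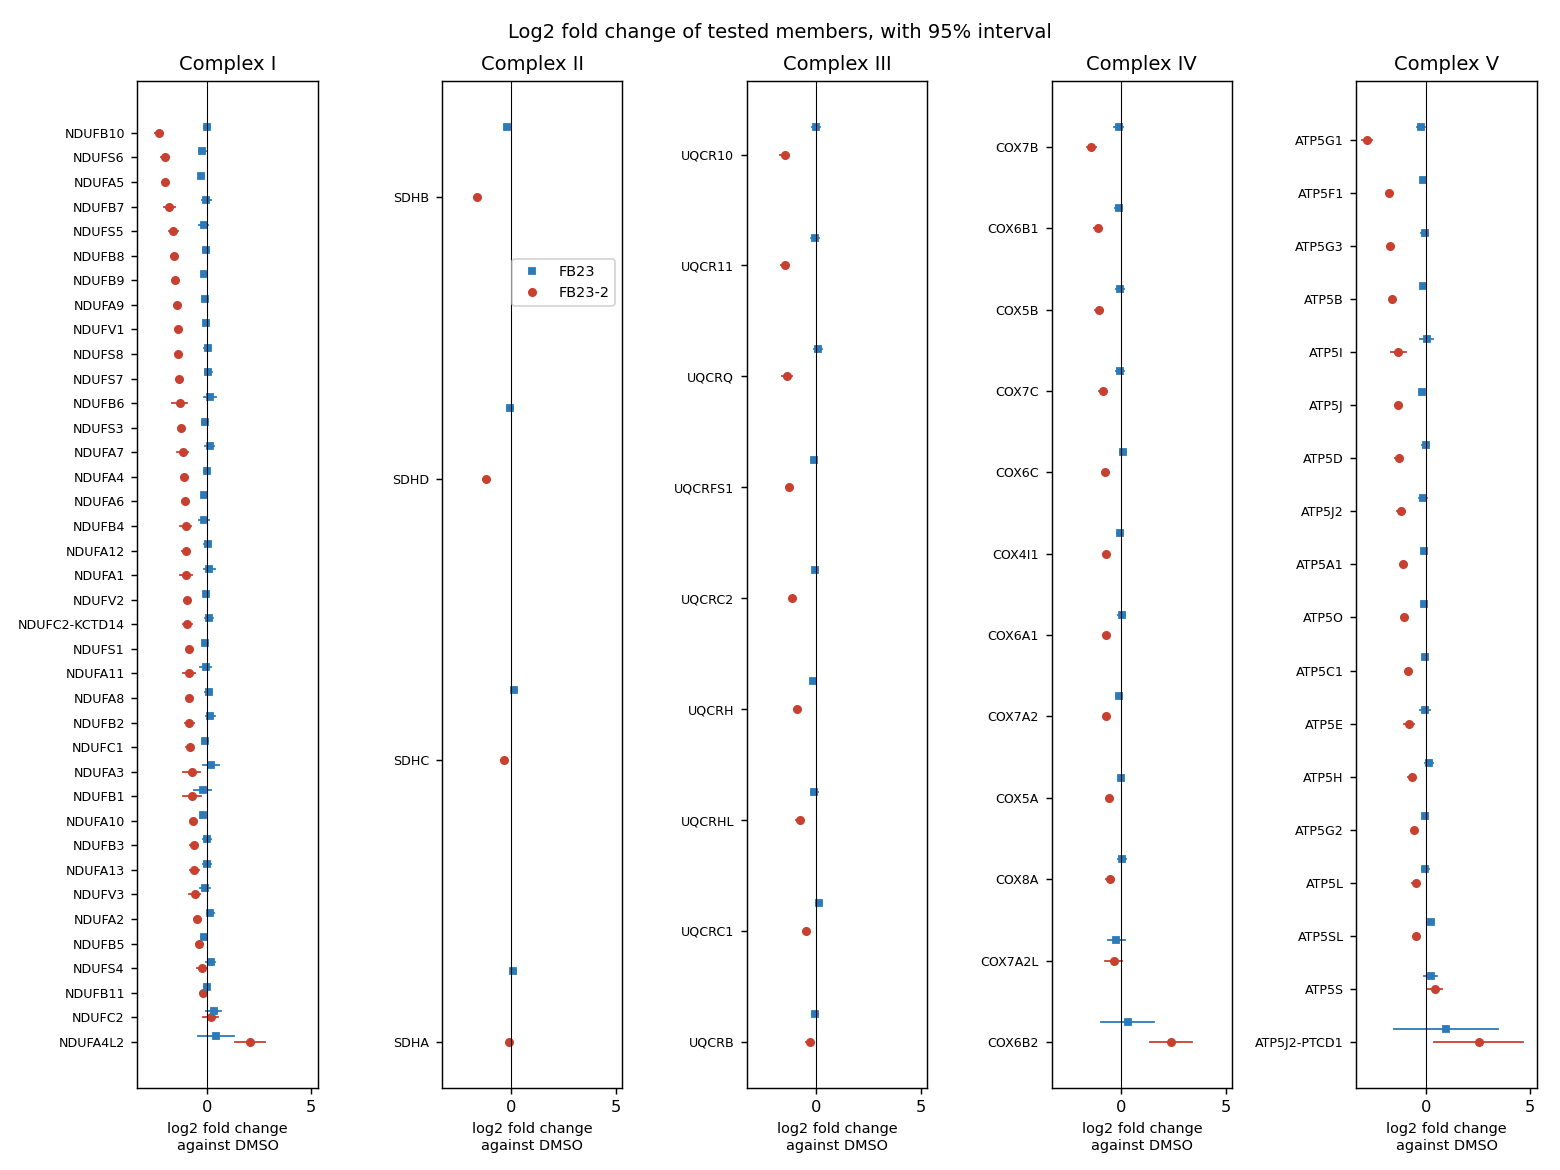
Log2 fold change against DMSO (horizontal axis) of tested members by complex, ordered by their value with FB23-2, with 95% intervals; squares are FB23 and circles FB23-2. The FB23-2 values reach from -2.80 for ATP5G1 to 2.54 for ATP5J2-PTCD1, and the FB23 values from -0.25 for NDUFA5 to 0.99 for ATP5J2-PTCD1, with the widest intervals on the barely detected genes.

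Complex II, succinate dehydrogenase, was split between its subunits. SDHB (chr1:17018722-17054032), the iron-sulfur subunit whose promoter is printed above, read 269, 273 and 268 TPM with DMSO, 231.5, 237.5 and 240.1 with FB23, and 103, 106 and 94.2 with FB23-2. The 3 groups did not overlap. SDHB fell 3.14-fold with FB23-2 (log2 -1.65, SE 0.061, adjusted p = 5.24e-14). SDHA (chr5:218320-268746), the flavoprotein that oxidizes succinate, read 108, 106 and 114 TPM with DMSO, 113, 122 and 119 with FB23, and 121, 123 and 121 with FB23-2. On the TPM scale SDHA was higher in all FB23-2 libraries than in any DMSO library, and in the count test it was not called at -0.10 (SE 0.051, 95% interval -0.20 to 0.01, adjusted p = 0.0871). The sign of SDHA turned with the scaling: it was 0.15 on the TPM scale (adjusted p = 0.00566, limma), 0.08 when scaled by upper quartiles and 0.05 by library totals. It was called lower after removal of GC and length trends (-0.275, adjusted p = 3.36e-07), with no filter on low counts (-0.12, adjusted p = 0.0396) and without DMSO replicate 2 (-0.13, adjusted p = 0.0487). Reads of SDHA may be shared with its pseudogene copies, and SDHAP1 rose by 0.64 (SE 0.055), from a mean of 37.2 to 69.0 TPM. The membrane anchors SDHD and SDHC, which bind coenzyme Q, changed by -1.21 (SE 0.067) and -0.37 (SE 0.061), and SDHC was not called on the TPM scale (-0.11, adjusted p = 0.152). As shares of the summed TPM of the 4 genes, SDHB went from 49.1% ± 0.601 with DMSO to 31.3% ± 1.9 with FB23-2, and SDHA from 19.9% ± 0.647 to 37.7% ± 0.446 (SD, n = 3).

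All 9 members of complex III fell with FB23-2, with a median of -1.14. The core subunits are UQCRFS1, the Rieske iron-sulfur protein, and UQCRC1 and UQCRC2, which hold the matrix side together. UQCRFS1 read 405, 395 and 408.5 TPM with DMSO, 364, 378 and 382 with FB23, and 198, 191 and 189 with FB23-2. The 3 groups did not overlap, with FB23 just under DMSO and FB23-2 far lower, and the change was -1.30 (SE 0.054, adjusted p = 2.07e-13). UQCRC2 changed by -1.14 (SE 0.041), more than UQCRC1 at -0.47 (SE 0.068), and the intervals of the 2 changes did not meet (-1.23 to -1.06 and -0.615 to -0.33). Among the small accessory subunits, UQCR10 (-1.51), UQCR11 (-1.49) and UQCRQ (-1.40) fell most. UQCRB was called at -0.31 (SE 0.072) but not with upper-quartile factors (-0.135) or on the TPM scale (-0.06). UQCRH, the hinge subunit, changed by -0.93 and UQCRHL by -0.78. These 2 genes are near-identical copies whose reads can be split between them, so their separate levels (449.8 and 1230 TPM with DMSO) are uncertain.

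Complex IV, cytochrome c oxidase, had the smallest fall by its median, -0.70 over 12 tested members, and all 10 of its generally expressed subunits fell. COX4I1, the largest nuclear subunit, read 602, 605 and 611 TPM with DMSO, 530, 612 and 632 with FB23, and 433, 458 and 416 with FB23-2. The FB23-2 libraries lay below all others, and on the TPM scale 1 FB23 library lay below DMSO while 2 lay above. The change was -0.71 (SE 0.078, adjusted p = 1.62e-07). COX5A and COX5B, a matrix-side pair, changed by -0.55 (SE 0.051) and -1.03 (SE 0.089). COX7B fell most: 1813, 1846 and 1786 TPM with DMSO, 1564, 1793 and 1704 with FB23, and 768, 791 and 759.5 with FB23-2 (log2 -1.41, SE 0.103). COX6B1, which joins the monomers of the dimer, changed by -1.105 (SE 0.081). COX8A, the highest member, changed by -0.53 (SE 0.094). COX7A2L, which joins complex IV to complex III, was not called (-0.34, SE 0.197, 95% interval -0.76 to 0.07, adjusted p = 0.116). COX6B2, the testis form of 6B, had 7 counts over the DMSO group, 14 over the FB23 group and 46 over the FB23-2 group, and stayed at or under 1.02 TPM. It too passed the count filter only through the 3 FB23-2 libraries, so its call (log2 2.37, SE 0.475) is given as a description.

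In complex V, 16 of 18 tested members fell, with a median of -1.05. The F1 head, which makes ATP, fell in all 5 of its subunits (median -1.07). ATP5B read 1758, 1788 and 1761 TPM with DMSO, 1639, 1636 and 1597 with FB23, and 684.5, 674.5 and 687 with FB23-2. The 3 groups did not overlap. With FB23-2 it fell 3.08-fold (log2 -1.62, SE 0.041, adjusted p = 3.57e-16). ATP5A1, the alpha subunit that alternates with beta, changed by -1.07 (SE 0.041), ATP5C1, the turning shaft, by -0.86 (SE 0.046), and ATP5D and ATP5E by -1.28 and -0.80. The stalk that holds the head in place fell in 4 of 4 genes. Among them ATP5F1 read 408, 408 and 399 TPM with DMSO and 143.5, 135 and 152 with FB23-2 (log2 -1.75, SE 0.044). ATP5J, ATP5O and ATP5H, also of the stalk, changed by -1.31, -1.02 and -0.67. The small membrane subunits ATP5I, ATP5J2 and ATP5L changed by -1.315, -1.19 and -0.47, and the call of ATP5L ended after removal of GC and length trends (-0.04, adjusted p = 0.629).

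The 3 genes that encode the same c subunit of the membrane ring fell by different amounts. Their proteins differ in the import signal that is cut off, so the mature subunit is the same. ATP5G1 (chr17:48892787-48895871) read 521, 525 and 480 TPM with DMSO, 396.5, 440 and 460 with FB23, and 76.5, 93.05 and 84.7 with FB23-2. The FB23-2 libraries were far below every FB23 and DMSO library, and the FB23 libraries were below the DMSO ones on this scale. ATP5G1 fell 6.99-fold with FB23-2 (log2 -2.80, SE 0.11, 95% interval -3.04 to -2.57, adjusted p = 1.17e-13). ATP5G3 (chr2:175176258-175181710) read 101, 101.5 and 99.7 TPM with DMSO and 37.2, 37.2 and 37.3 with FB23-2 (log2 -1.68, SE 0.083). ATP5G2 (chr12:53665170-53681423) read 407, 388 and 403 TPM with DMSO, 380, 394.5 and 424 with FB23, and 322, 341 and 312 with FB23-2 (log2 -0.54, SE 0.064). The 95% intervals of the 3 changes did not meet. ATP5G1 thus went from 50.4% ± 1.47 of the summed TPM of the 3 genes with DMSO to 46.5% ± 0.39 with FB23 and 18.9% ± 1.21 with FB23-2. ATP5G2 went from 39.6% ± 1.38 to 43.0% ± 1.11 and 72.7% ± 1.06 (SD, n = 3). These shares depend on the gene models, of 576 bases for ATP5G1, 1164 for ATP5G2 and 3293 for ATP5G3. In CPM, which is not per length, ATP5G1 (mean 77.0 with DMSO) lay below ATP5G2 (237.8) and ATP5G3 (222.3).

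**Figure D4:**
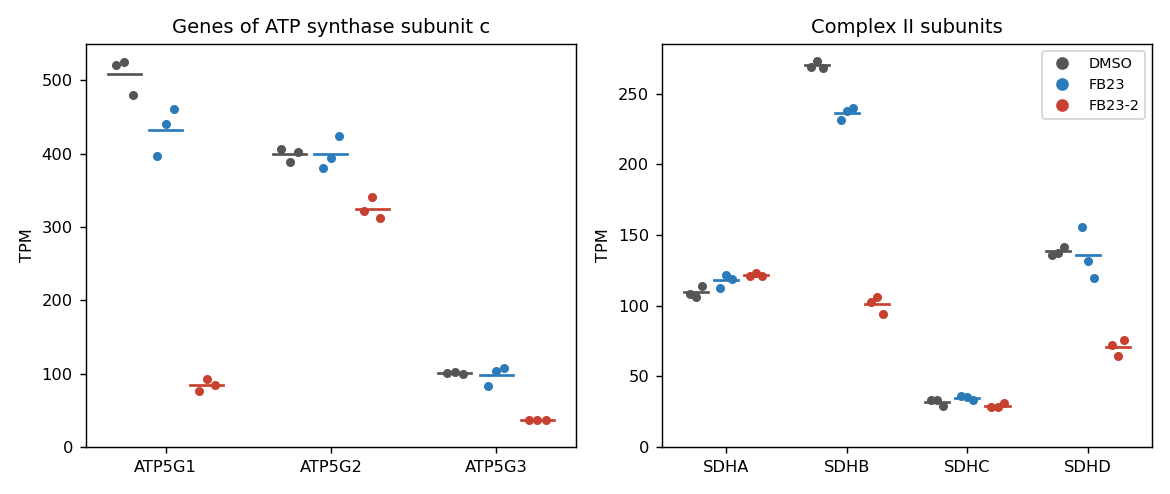
TPM (vertical axis) of the genes of the c ring and of succinate dehydrogenase in each library, with DMSO, FB23 and FB23-2 side by side. On this scale, which is per length of the gene model, ATP5G1 is the highest c-ring gene with DMSO and ATP5G2 with FB23-2. SDHB is the highest of complex II with DMSO and lies below SDHA with FB23-2.

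Both members that rose in complex V are no plain subunits. ATP5S, named coupling factor B and now DMAC2L, rose from 3.35, 4.68 and 3.92 TPM with DMSO to 5.74, 5.84 and 7.85 with FB23-2 (log2 0.43, SE 0.155, adjusted p = 0.016). It was not called without DMSO replicate 1 (0.32, adjusted p = 0.0866) or without FB23-2 replicate 3 (0.32, adjusted p = 0.0809). ATP5J2-PTCD1 is a readthrough symbol that shares reads with ATP5J2, and its rise (log2 2.54, SE 1.005, adjusted p = 0.0273) rested on libraries that overlapped. It passed the count filter only with the help of FB23-2 libraries, so its call is given as a description. It was not called by DESeq2 (2.50, adjusted p = 0.4), and without DMSO replicate 1 its adjusted p was 0.104. Leaving out DMSO replicate 2, FB23-2 replicate 1 or FB23-2 replicate 2 also ended the call (adjusted p = 0.107, 0.0522 and 0.153). ATP5SL, now DMAC2, fell by 0.44 on the log2 scale. Without isoforms, readthroughs, these 2 named genes and partners that share reads, 69 of 72 subunits fell and the remaining 3 were not called, with a median of -1.005. All 4 members called higher were among those left out, so the lack of rises in this set is no result.

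FB23 against DMSO asks the same of the first compound. Of 82 members, 5 fell and 1 rose, 7.32% in all, where 23.5% of all genes were called (12.3% higher and 11.2% lower). The median of the members was -0.02 and no member changed by 0.5 or more with a call. NDUFA5 (-0.25, SE 0.054, adjusted p = 0.00352), SDHB (-0.21, SE 0.057, adjusted p = 0.0153), ATP5J (-0.19, SE 0.064, adjusted p = 0.0414), NDUFA10 (-0.18, SE 0.053, adjusted p = 0.0226) and ATP5B (-0.14, SE 0.04, adjusted p = 0.0175) were lower. ATP5SL was higher, at 71.1, 69.3 and 76.6 TPM against 59.7, 60.9 and 57.4 with DMSO (0.28, SE 0.061, adjusted p = 0.00369). ATP5G1 was not called at -0.24 (SE 0.09, adjusted p = 0.0652), nor NDUFS6 at -0.20 (SE 0.08, adjusted p = 0.0856). With FB23-2, set against the same DMSO libraries, NDUFA5 changed by -1.97, SDHB by -1.65, ATP5J by -1.31, NDUFA10 by -0.65 and ATP5B by -1.62.

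The FB23 libraries differed among themselves for these genes. Relative to the DMSO mean, the median log2 value of the members was -0.20 in replicate 1, 0.01 in replicate 2 and 0.10 in replicate 3. Replicate 1 also had the smallest total and the longest fragments, with a median difference between length and effective length of 399.0 bases against 367.1 to 378.5 in the others. Its median was -0.35 over the 25 members with models under 700 bases and -0.14 over the 57 longer ones, and the part of fragment length in this was not tested. Without FB23 replicate 1, 7 members rose and 3 fell with FB23, where 11.9% of all genes rose and 10.4% fell. Without FB23 replicate 3, 1 rose and 10 fell, where 11.7% of all genes rose and 10.7% fell. Without DMSO replicate 1, DMSO replicate 2 or FB23 replicate 2, the members that fell numbered 2, 1 and 2. Of all genes 7.08%, 7.33% and 7.32% fell in the same order. After removal of GC and length trends 24 members fell and 2 rose with FB23, where 20.1% of all genes fell and 13.9% rose. The call of ATP5B ended without DMSO replicate 1, DMSO replicate 2 or FB23 replicate 2 (adjusted p = 0.0708, 0.0679 and 0.0721). That of SDHB ended without the same libraries (adjusted p = 0.0617, 0.0549 and 0.0537). NDUFA10 was not called without DMSO replicate 2, DMSO replicate 3 or FB23 replicate 1 (adjusted p = 0.0849, 0.0887 and 0.0512). ATP5J was not called in 6 of the 9 fits that leave out a library. The calls of NDUFA5 and ATP5SL held in all 9 of those fits.

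Set directly against FB23, FB23-2 had 76 members lower and 2 higher, with a median of -0.91, where 41.1% of all genes were lower and 40.4% higher. In 74 members all FB23-2 libraries lay below all FB23 libraries, as in 40.8% of all genes. All 4 genes of complex II fell in this comparison, SDHA by 0.19 on the log2 scale (SE 0.05, adjusted p = 0.0022) and SDHB by 1.45 (SE 0.061). SDHA was not called when scaled by upper quartiles (-0.02, adjusted p = 0.678) or library totals (-0.065, adjusted p = 0.207), and its sign turned on the TPM scale (0.05, adjusted p = 0.322). ATP5G1 changed by -2.57 (SE 0.11), NDUFB10 by -2.27 (SE 0.089), and ATP5SL by -0.72 (SE 0.062). The 2 called higher were NDUFA4L2 (1.63, SE 0.294) and COX6B2 (2.05, SE 0.403), both of which passed the filter only through FB23-2. ATP5S (0.20, adjusted p = 0.219), ATP5J2-PTCD1, NDUFC2 and COX7A2L were not called.

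Across the 82 tested members, the change with FB23-2 had a Spearman correlation of 0.107 with the length of the gene model, -0.052 with its GC content and -0.37 with the DMSO level in TPM. These values are across genes of the same libraries, which are not independent replicates. The DMSO libraries enter both the change and the DMSO level, which by itself makes that correlation more negative, so it supports no link with level. The members also include NDUFA4L2, COX6B2 and ATP5J2-PTCD1, which were low with DMSO and passed the filter only with FB23-2.

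Other genes of the pathway moved with the subunits under FB23-2. Of 105 tested genes in the lists, 92 fell and 8 rose, where 41.3% of all genes fell and 41.3% rose. The 4 subunits whose symbols the rule misses all fell: NDUFAB1, the acyl carrier protein of complex I (-1.785), CYC1, the cytochrome of complex III (-1.67), and C14orf2 and USMG5, small ATP synthase subunits (-1.42 and -1.34). CYCS, cytochrome c, fell from 105, 107 and 102 TPM with DMSO to 41.3, 38.6 and 45.6 with FB23-2 (-1.58, SE 0.049). All 15 assembly factors of complex I fell (median -1.32), led by NDUFAF4 (-2.78, SE 0.079) and C17orf89 (-2.29, SE 0.101). Of 22 assembly factors of complex IV, 19 fell and 1 rose. COA7 fell from 72.7, 72.8 and 72.2 TPM with DMSO to 9.63, 9.60 and 9.85 (-3.15, SE 0.062), below the change of any subunit, and COA6 changed by -2.15 (SE 0.082). COX19 was the gene that rose (0.24, SE 0.07), with the sign turned to -0.08 after removal of GC and length trends. For complexes II and III, SDHAF3 (-1.90) and BCS1L (-1.82), which act on the iron-sulfur subunits, had the largest falls.

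In coenzyme Q synthesis 8 of 10 genes fell and 2 rose. COQ3, a methyltransferase, went from 29.2, 31.2 and 30.6 TPM with DMSO to 5.10, 4.95 and 5.91 with FB23-2 (-2.76, SE 0.097), and PDSS1, which makes the side chain, changed by -2.42 (SE 0.07). COQ6 (0.40) and COQ5 (0.25) rose. In the citric acid cycle 12 of 14 genes fell, most of all IDH3B (-1.62) and MDH2 (-1.51). IDH2, the NADP-linked isocitrate dehydrogenase, rose from 31.2, 34.6 and 35.5 TPM to 82.1, 77.0 and 70.8 (0.945, SE 0.078), and OGDH rose by 0.47 (SE 0.052). Of 10 genes of supercomplexes and cristae, 9 fell, led by CHCHD3 and MINOS1 (-1.56 for each).

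Among the regulators of mitochondrial biogenesis 13 of 15 tested genes fell and 2 rose (median -1.17). PPARGC1B, a coactivator of this gene class, read 6.96, 7.04 and 7.90 TPM with DMSO, 5.29, 5.27 and 4.63 in the FB23 libraries, and 0.76, 0.94 and 1 in the FB23-2 libraries. The 3 groups did not overlap. Its log2 changes were -0.55 (SE 0.069, adjusted p = 3.53e-05) with FB23 and -3.29 (SE 0.089, adjusted p = 7.49e-16) with FB23-2. C10orf2, the mitochondrial DNA helicase Twinkle, changed by -0.42 (SE 0.047) and -2.96 (SE 0.058) in the same order. With FB23-2, NRF1 fell by 1.02, YY1 by 0.83 and ESRRA by 1.17 on the log2 scale. Of the GABP genes, GABPA changed by -0.58, GABPB1 by -0.84 and GABPB2 by 0.49 (SE 0.184, adjusted p = 0.0211). GABPB2 read 1.17, 1.19 and 1.51 TPM with DMSO and 2.18, 2.31 and 1.90 with FB23-2. The call of GABPB2 ended without DMSO replicate 1, DMSO replicate 2, FB23-2 replicate 1 or FB23-2 replicate 2 (adjusted p = 0.0747, 0.0822, 0.055 and 0.0737). Genes for factors of the CACGTG and ACGTG sites were not in the lists. POLG, the mitochondrial DNA polymerase, rose (0.37, SE 0.048). After removal of GC and length trends POLG was called lower instead (-0.14, adjusted p = 0.000539). With FB23, 6 of these 15 genes fell and 1 rose, and over all 105 genes of the lists 18 fell and 12 rose, where 11.2% of all genes fell and 12.3% rose.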

How the data were processed

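Polyadenylated RNA of 9 libraries (DMSO, FB23 and FB23-2, 3 each, grouped by their titles) was analysed from 1 deposited table per library. The deposited expected counts and TPM values were made by the authors with RSEM 1.2.31 on GRCh38, per the submitters' processing notes, and each table also gives gene length and effective length per the file headers. No aligner, strand setting or filter is named in the sources used here.

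After rounding, expected counts entered edgeR 4.0.16 (R 4.3.3). Genes passed filterByExpr (minimum count 10, minimum total 15), which left 13365, and libraries were scaled with TMM factors. All 9 libraries shared a single quasi-likelihood model of group means. P-values are two-sided and adjusted over all 13365 genes by Benjamini and Hochberg, and a call means an adjusted p under 0.05. The F statistic gave the standard errors, and the 95% intervals are not adjusted. The common coefficient of variation was 5.12%. TPM was used as deposited for levels. Counts of members without overlap were read from CPM, and ranges of single genes beside their TPM values were read from TPM. A limit for 0 counts is 3 counts over library totals without TMM factors, and it covers counting error only. In simulated counts of 13199 genes for FB23-2 against DMSO, 100 well-counted genes changed by 0.5 and 100 by 1 on the log2 scale, in either direction. The spread was the same for every gene. Of these changes 82% at 0.5 and 98% at 1 were recovered, and 3.74% of calls were false. In the data 82.6% of genes were called, so these rates do not cover scaling or false calls where most genes change.

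Names, positions and promoters are from RefSeq GRCh38.p14, and all 88 members were matched by transcript accession. Motifs were searched on both strands. For 98.4% of tested genes the GC content could be looked up. The members, the lists of pathway genes, the marker lists and the rule for named genes were chosen with earlier results of these data known. Named were the core and catalytic subunits, the isoforms, paralogs and readthroughs, the 2 largest called changes each way in each complex, the highest and lowest members with DMSO and, in each list, the 2 largest called changes each way. NDUFB11, NDUFB5, NDUFS4 and the further members outside that rule were named after their values were seen. Alternatives covered scaling, filter, test, unit, samples and GC and length trends (limma 3.58.1, DESeq2 1.42.0). The values of 1 complex I member are not reported here. The set of 72 subunits was added after the data were seen. It leaves out NDUFA4L2, the COX isoforms, UQCRHL, ATP5L2, readthroughs, ATP5S, ATP5SL, UQCRH, NDUFC2 and ATP5J2. It keeps SDHA and UQCRB, although the pseudogenes SDHAP1 and UQCRBP1 were also counted and may share their reads.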

Additional observations from a re-analysis of the deposited data

How the results depend on the processing

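The fall of the members with FB23-2 kept its direction under every alternative run, from 66 to 76 members lower against DMSO and 67 to 76 against FB23. Scaling moved its size and the median of all genes together. With upper-quartile factors, library totals and limma on TPM (pseudocount 1) the median of all genes with FB23-2 against DMSO moved to 0.18, 0.16 and 0.20, and the members' median was -0.743, -0.767 and -0.685. In the same order the members' median against FB23 was -0.748, -0.788 and -0.696. With GC and length trends removed the members' medians moved up to -0.823 against DMSO and -0.745 against FB23, with 4 members higher against FB23. There the medians of all genes moved down, to -0.114 and -0.093. The median against FB23 was -0.97 with no filter on low counts and -0.879 with DESeq2. A filter of 1 CPM in 3 libraries left 2 members higher against DMSO and 1 against FB23. In the set of 72 subunits the medians were -1.005 and -0.969, with 0 members higher in either comparison. That set leaves out every member called higher in the main fit. The 0 was therefore fixed by the choice of the set, and its medians are given as a description.

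Counts with FB23 against DMSO, main values 5 lower and 1 higher, were less steady. They were 3 lower with library totals, 3 lower and 4 higher without a filter, 3 lower and 2 higher on the TPM scale, and 24 lower and 2 higher with GC and length trends removed. Of all genes 8.77%, 5.74%, 7.03% and 20.1% were lower in the same order. Without a filter, on the TPM scale and with the trends removed, 11.2%, 10.5% and 13.9% were higher. With an absolute log2 change of at least 0.5 the member counts were 0 lower and 0 higher. In the set of 72 subunits 0 were higher, which the choice of that set fixed, as it leaves out ATP5SL. Leaving out each library in turn gave 1 to 10 members lower and 1 to 7 higher. Of all genes 7.08% to 11.7% were lower and 8.33% to 12.7% higher in those fits. With FB23-2 the same fits gave medians of -0.888 to -0.934 and 2 to 4 members higher against DMSO, and medians of -0.863 to -0.982 against FB23. The cause of these shifts was not tested.

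Correlations of deviations from the group means were -0.185 to 0.086 for same-numbered libraries and -0.135 to 0.166 for the others. Same-numbered pairs with a DMSO library ran from 0.026 to 0.086, and those of FB23 with FB23-2 from -0.185 to 0.019. With 3 libraries per group these values cannot settle whether the replicate numbers pair the samples. The replicate block gave 4 lower and 1 higher with FB23, 74 lower and 4 higher with FB23-2 against DMSO, and 76 lower and 2 higher against FB23. The block with GC and length trends removed gave 24 members lower with FB23, where 19.2% of all genes were lower. It gave medians of -0.829 and -0.757 with FB23-2, and 4 higher against FB23.

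Signs turned for these genes. Against DMSO, SDHA was 0.076 with upper-quartile factors, 0.052 with library totals and 0.15 on the TPM scale, and NDUFB11 was 0.00 and 0.067 with upper-quartile factors and TPM. With GC and length trends removed, without and with the replicate block, NDUFB5 was 0.14 and 0.134, NDUFS4 0.103 and 0.105, COX19 -0.075 and -0.077, and POLG -0.139 and -0.139. Of these only POLG was called, in the direction opposite to the main fit (adjusted p = 0.000539 and 0.00115). Against FB23, COX7A2L was 0.048, 0.01 and 0.059 with upper-quartile factors, library totals and TPM, and NDUFC2 was 0.025 with upper-quartile factors. On the TPM scale NDUFC2 was 0.056, NDUFB11 0.064, SDHA 0.046 and UQCRB 0.006. With GC and length trends removed, without and with the replicate block, COX7A2L was 0.269 and 0.299, NDUFB5 0.296 and 0.283, NDUFS4 0.001 and 0.008, COX19 -0.01 and -0.016, OGDH -0.205 and -0.21, and POLG -0.249 and -0.249. In those fits NDUFB5 was called higher (adjusted p = 0.000307 and 0.000849), where the main fit called it lower. Leaving out each library in turn gave -0.291 to 0.115 for COX7A2L (0.115 without FB23 replicate 3, 0.025 without FB23-2 replicate 1) and -0.283 to 0.003 for NDUFC2 (0.003 without FB23-2 replicate 1). Single members were recomputed in all settings for FB23-2, and for FB23 where the adjusted p was under 0.1.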
